A study of Mus musculus with 32 samples.

Results

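The libraries described here came from the injured spinal cord of mice given the transcription factor Gsx1 (labelled SCI+Gsx1, SCI for spinal cord injury), taken 3 or 14 days after injury. They were chosen by their sample titles and number 6 of the 32 in the series, 3 at each time. Both groups are C57BL/6J mice of 8 to 12 weeks that received the injury and Gsx1, so the time after injury is the only labelled difference between them. The comparison groups are injured cord labelled SCI+Ctrl at the same times (3 libraries each), sham cord at 3 days (3 libraries) and the SCI+Gsx1 group at 35 days (4 libraries), all of the same strain and age. Sham cord at 35 days (3 libraries, also of 8 to 12 weeks) is given beside list sums of neurons and endothelium. Sham cord without a day means sham cord at 3 days. Each library holds total RNA of cord within about 2 to 3 mm on either side of the lesion. The sources used here do not give how the injury was made, what carried Gsx1 into the cord, what the SCI+Ctrl animals received or whether each library is 1 animal. The p-values therefore rest on library-to-library spread, part of which may be technical.

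Gsx1 is a homeobox factor that, in the embryonic dorsal cord, is made by dividing progenitors and takes part in the choice between inhibitory and excitatory interneuron fates. After cord injury, monocytes from the blood and resident microglia gather at the lesion, take up debris and iron from extravasated blood, and divide together with astrocytes, endothelial cells and oligodendrocyte precursors. Over the following weeks this early wave subsides, astrocytes form a border around the lesion, and phagocytes filled with myelin lipid remain. The question put to these libraries was how transcript levels in Gsx1-treated cord moved between these stages, and whether they moved differently from injured cord without Gsx1.

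Levels are CPM, read counts scaled to a common library total, and fold changes are 14 days over 3 days on the log2 scale; a signed value given beside an adjusted p is such a log2 fold change. SE is its standard error, and a gene is called, or said to have risen or fallen, where the adjusted p is under 0.05. Counted reads were 16853107, 16295452 and 17160939 at 3 days and 16257055, 17841451 and 14835455 at 14 days, within the series' range of 10823632 to 19512107. Markers of cord were high in all 6 libraries. Over them the myelin gene Mbp ranged from 13127 to 24141 CPM. Snap25 of neurons was at 846, 1269 and 1159 CPM at 3 days and 1659, 1952 and 1662 CPM at 14 days, and Gfap of astrocytes is given below. In a principal component analysis of the Gsx1 and injured control libraries of both times, the first component (33.9% of the variance) placed every 3-day library on one side and every 14-day library on the other.

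Gsx1 itself (chr5:147188696-147190947, GRCm38) was near the detection limit. It was read at 0.175, 0.0600 and 0.233 CPM at 3 days (3, 1 and 4 reads) and 0.435, 0.172 and 0.665 CPM at 14 days (7, 3 and 10 reads). Injured controls were at 0.302, 0.437 and 0.231 CPM at 3 days and 0.0858, 0.200 and 0.206 CPM at 14 days, so the 2 treatments overlapped at both times. It was too low for the test across genes, and without the filter on low counts its change was 1.38 (95% interval -0.39 to 3.14). The reads therefore do not check the Gsx1 label.

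Single libraries stood apart in markers of cells that can enter or adhere to a cord segment. The neutrophil list (14 genes in the table) summed to 180.4, 384 and 179 CPM at 3 days and 672, 179.9 and 166 CPM at 14 days. In 14-day replicate 1, the highest, S100a8 was 93.7 CPM, against 20.7 and 16.4 CPM in the other 14-day libraries. MHC class II genes summed to 237, 249 and 118 CPM and 189.6, 134 and 1111 CPM, with 14-day replicate 3 far above the rest. Skeletal muscle genes summed to 45.5, 68.9 and 58.7 CPM at 3 days and 102, 165 and 96.4 CPM at 14 days, so that every 14-day library was above every 3-day library, against 99.2 to 103 CPM in sham cord. All 16 had positive log2 fold changes (median 2.11, and -0.62 in injured controls), and none was called. The highest was 14-day replicate 2, where Acta1 was 19.7 CPM against 2.30 and 1.80 CPM. At 3 days, replicate 1 had the lowest sum of pan-neuronal genes (6959.7, 9243 and 9296 CPM in replicates 1 to 3) and the highest sum of mitosis genes (1116, 621 and 725 CPM). None of the members of the neutrophil, muscle, peripheral myelin, red cell or adipocyte lists passed the test between the times, and their part in the results below was not tested. The sex-linked list (5 genes) summed to 163 to 188 CPM at 3 days and 198 to 220 CPM at 14 days in Gsx1 cord. At 3 days it summed to 779, 173 and 179 CPM in injured controls and 144 to 541 CPM in sham cord. None of its members was called, and the part of sex in comparisons with those groups was not tested.

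**Figure D1:**
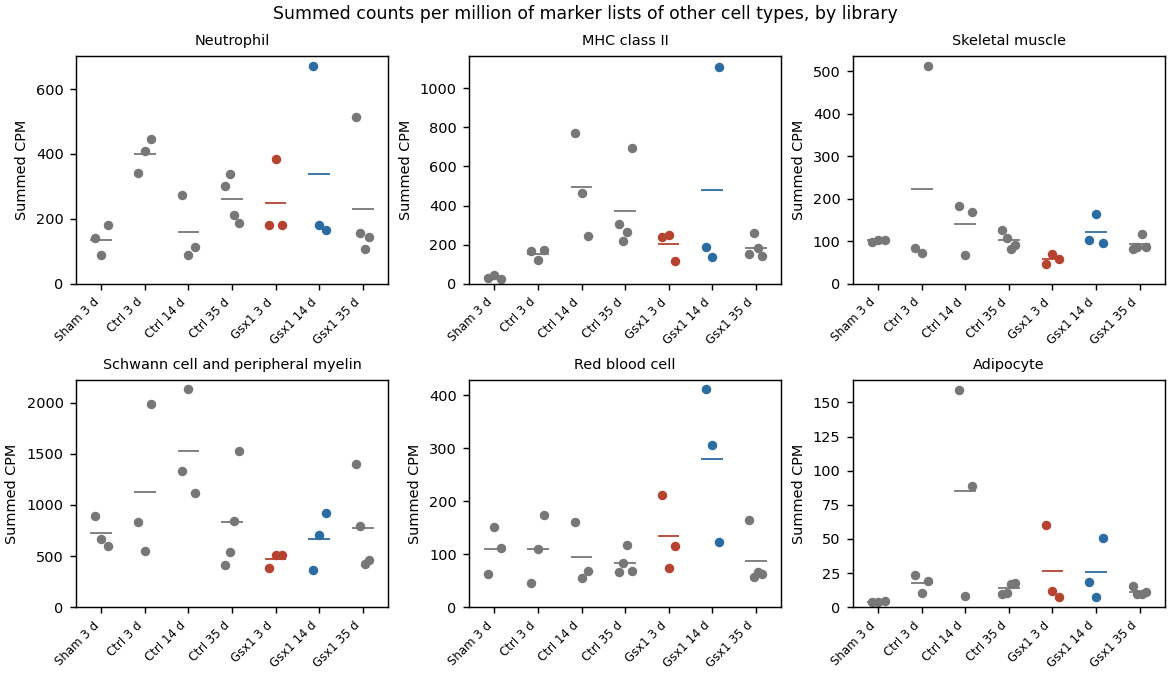
Summed CPM (vertical axes, from 0) of marker lists of cells that are not native to the cord parenchyma, by group (horizontal axes); points are libraries in order of replicate number, lines are group means, and the Gsx1 groups at 3 and 14 days are coloured. In Gsx1 cord at 14 days, replicate 1 stands above its group for neutrophil genes (672 CPM) and replicate 3 for MHC class II genes (1111 CPM), and single injured control libraries stand apart too.

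Between 3 and 14 days the called genes of Gsx1 cord that were lower included most genes of cell division, the monocyte chemokines, interferon-stimulated genes and reactive astrocyte genes, and those that were higher included genes of motor neurons and neurofilaments. Phagocyte genes were called in both directions, more of them lower than higher. Of 16314 genes tested with edgeR's quasi-likelihood test, 1031 passed an adjusted p of 0.05 (6.32% of those tested), 784 of them lower at 14 days (4.81%) and 247 higher (1.51%). Falls were the larger changes: 400 of the lower genes and 63 of the higher genes changed at least 2-fold. Over all tested genes the median log2 fold change was 0.01 and 48.7% of genes had a negative value. In 5560 of the 16314 tested genes the 3-day and 14-day libraries did not overlap, so a lack of overlap is common here. Left-out libraries moved the count of calls, which was 141 without 3-day replicate 1, 155 without 14-day replicate 2, 412 without 14-day replicate 1 and 583 without 3-day replicate 2, but 718 without 14-day replicate 3 and 1281 without 3-day replicate 3. With each of the 6 libraries left out in turn, 100 genes stayed called every time, 88 lower and 12 higher.

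At 3 days the lower genes stood above the sham cord of 3 days and the higher genes below it, and at 14 and 35 days both were nearer to it. Sham cord at 35 days was not used in these ratios. Against sham cord at 3 days, the 784 lower genes stood at a median of 2.82-fold at 3 days, 1.37-fold at 14 days and 1.26-fold at 35 days in Gsx1 cord (group mean CPM plus 0.5). The 247 higher genes stood at a median of 0.613-fold at 3 days, 0.927-fold at 14 days and 0.942-fold at 35 days. All tested genes together had medians of 1.01, 1.00 and 1.01 at these times. Because the 3-day and 14-day libraries chose these genes, their ratios at those times are a description. The 35-day libraries were not compared in that choice and entered it only through the low-count filter, the scaling and the shared estimate of spread.

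Genes of mitosis were lower almost throughout: of the 28 genes of this list, 24 fell and none rose, with a median log2 fold change of -1.97. Kif2c, named for the size of its fall, is not among the 28. Kif2c, a kinesin that takes microtubules apart at the centromere, was read at 15.9, 8.05 and 9.80 CPM at 3 days and 1.43, 0.689 and 1.13 CPM at 14 days (log2 fold change -3.37, SE 0.47, adjusted p = 2.32e-04). Tpx2, which starts spindle microtubules, was at 53.0, 24.9 and 27.8 CPM at 3 days and 9.25, 6.08 and 7.31 CPM at 14 days (log2 fold change -2.22, SE 0.33, adjusted p = 3.40e-04). For both genes every 3-day library was above every 14-day library, and 3-day replicate 1 was the highest. Ccnb1, the cyclin that drives entry into mitosis, was at 31.8, 12.2 and 17.8 CPM at 3 days and 3.66, 1.84 and 2.73 CPM at 14 days (log2 fold change -2.91, SE 0.48, adjusted p = 0.00103). Bub1 of the spindle checkpoint changed by -2.92 (adjusted p = 0.00178), Kif23 of the midbody by -2.45 (adjusted p = 8.07e-04) and Prc1 of the central spindle by -1.97 (adjusted p = 0.00103). These 6 genes kept their calls with each library left out, whereas Top2a, which untangles DNA before division, had -2.32 (adjusted p = 0.00506). Top2a lost its call without 3-day replicate 1 (0.0620) and 14-day replicate 2 (0.0553). Mki67, the usual marker of cycling cells, was at 149.6, 66.2 and 80.0 CPM at 3 days and 47.6, 21.5 and 22.9 CPM at 14 days with a log2 fold change of -1.68 (adjusted p = 0.0598), and its groups did not overlap. Without 3-day replicate 1 or without 14-day replicate 2 the list's count was 10, and without any other single library it was 21 to 23. At 35 days Kif2c was at 0.548 to 1.58 CPM (median 1.18, 4 libraries), and in sham cord at 3 days at 0.242 ± 0.0303 CPM (SD, n = 3). In these bulk samples a fall of a cell type's genes can mean fewer such cells or less RNA per cell, and these cannot be told apart.

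DNA replication genes moved the same way with smaller changes, 15 of 24 lower and none higher (median -1.02). Mcm5, a subunit of the helicase that opens replication origins, was at 38.4, 24.1 and 18.0 CPM at 3 days and 8.63, 5.74 and 6.52 CPM at 14 days (log2 fold change -1.95, SE 0.31, adjusted p = 7.41e-04). Pole, a replicative polymerase, changed by -1.55 (adjusted p = 7.97e-04) and Uhrf1, which carries DNA methylation through replication, by -2.32 (adjusted p = 0.00261); all 3 genes kept their calls with each library left out. Mcm2 had -1.28 (adjusted p = 0.00528). Mcm2 lost its call without 3-day replicate 1 (0.0914) and 14-day replicate 2 (0.0520). The list's count was 3 without 3-day replicate 1 and 4 without 14-day replicate 2. In injured controls both lists were lower too: 25 of 28 mitosis genes and 15 of 24 replication genes were lower at 14 days there, against 2.42% of all genes lower (medians -2.05 and -1.13).

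Promoters of many mitosis genes hold 2 short elements, and those of 3 genes that fell are shown to let the elements be seen in place. The bases run 5′ to 3′ and end just before the RefSeq transcription start (GRCm38.p6), with capitals marking CCAAT (the letters bound by the factor NF-Y) on either strand and the cell cycle element TTTGAA.
Ccnb1, chr13:100786487-100786646, minus strand: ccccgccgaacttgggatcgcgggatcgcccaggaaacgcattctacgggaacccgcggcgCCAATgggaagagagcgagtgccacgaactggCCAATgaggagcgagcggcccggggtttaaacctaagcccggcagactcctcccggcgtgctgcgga
Bub1, chr2:127831860-127832019, minus strand: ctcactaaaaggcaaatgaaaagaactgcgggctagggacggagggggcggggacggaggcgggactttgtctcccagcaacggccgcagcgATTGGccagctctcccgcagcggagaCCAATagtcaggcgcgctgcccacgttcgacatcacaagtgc
Cdc20, chr4:118437344-118437503, minus strand: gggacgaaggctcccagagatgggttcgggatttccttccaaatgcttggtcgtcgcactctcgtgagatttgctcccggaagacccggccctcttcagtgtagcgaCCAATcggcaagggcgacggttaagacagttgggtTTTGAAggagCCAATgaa
Cdc20, the activator of the anaphase-promoting complex, was chosen for display from the list's called members because it holds both elements. In Ccnb1 and Bub1 only CCAAT was found. CCAAT, read on both strands in the 250 bases before the start, was found in 16 of the 20 called mitosis genes with a RefSeq promoter and in 9 of the 11 called replication genes, against 35.9% of the 11851 tested genes with a promoter. TTTGAA or TTCGAA was found in 6 of the 20 mitosis genes against 12.3% of all. Of the called members, 4 genes of each list had no RefSeq promoter in the tables used here. A match is a description of the letters and does not show that a factor binds there.

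Interferon-stimulated genes, which cells switch on when interferon or viral nucleic acid is sensed, had the lowest median of the 55 lists examined (-2.28). Of its 22 genes, 12 were lower at 14 days and none higher, and all 22 had negative values. Irf7, a transcription factor that amplifies interferon production, was at 37.4, 151 and 79.4 CPM at 3 days and 6.71, 15.7 and 9.51 CPM at 14 days (log2 fold change -3.06, SE 0.85, adjusted p = 0.0294). Irf9, the DNA-binding subunit of the interferon-activated complex, was at 41.3, 81.6 and 60.9 CPM at 3 days and 22.2, 25.2 and 21.2 CPM at 14 days (log2 fold change -1.42, SE 0.31, adjusted p = 0.00798). At 3 days replicate 2 was the highest library and replicate 1 the lowest for both, and no 14-day library reached the 3-day range. Ifit1, which binds foreign RNA, was at 24.5, 92.0 and 63.3 CPM at 3 days and 7.95, 15.6 and 8.24 CPM at 14 days (-2.49, adjusted p = 0.0447). Bst2, which tethers virus particles, changed by -2.29 (adjusted p = 0.0221) and Usp18, which removes the modifier Isg15, by -2.48 (adjusted p = 0.0293). Irf9 alone of these 5 genes kept its call with each library left out; the adjusted p of Irf7 ran from 0.0327 to 0.123 and that of Ifit1 from 0.0593 to 0.151 over the 6 fits with a library left out. The list's count fell to 3 and 1 without 3-day replicates 1 and 2, to 6 without 3-day replicate 3, and to 1, 1 and 2 without 14-day replicates 1, 2 and 3. With DESeq2 it was 18, and with replicate number as a block, fitted on the compared groups alone, 20. Ifit and Oas genes have near-identical copies, between which counting can split reads. The summed level of the list was 654, 1754 and 1343 CPM at 3 days, 313, 430.4 and 352 CPM at 14 days and 174 to 199 CPM in sham cord at 3 days.

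In injured controls the list summed to 1153, 1911 and 371 CPM at 3 days and 622, 337 and 339 CPM at 14 days, with replicate 3 the lowest at 3 days. Its median there was -1.61 and none of the 22 genes passed the test. The difference between the 2 time changes was not called for any of them: for Irf7 it was -0.60 (95% interval -2.92 to 1.71) and for Irf9 -0.46 (95% interval -1.34 to 0.42). The 2 promoters below are shown because both hold the interferon element, GAAA and GAAA with 2 bases between them on either strand, in capitals. In Bst2 the capitals cover 2 overlapping matches.
Ifit1, chr19:34640729-34640888, plus strand: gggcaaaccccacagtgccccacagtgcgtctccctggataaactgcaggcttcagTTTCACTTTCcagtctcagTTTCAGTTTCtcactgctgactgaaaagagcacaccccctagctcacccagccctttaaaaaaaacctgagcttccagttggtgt
Bst2, chr8:71537473-71537632, minus strand: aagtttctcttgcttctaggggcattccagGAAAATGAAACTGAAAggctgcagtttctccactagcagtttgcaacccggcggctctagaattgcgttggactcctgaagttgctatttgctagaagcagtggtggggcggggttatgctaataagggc
The element was found in 5 of the 9 called interferon-stimulated genes with a RefSeq promoter, against 2.63% of tested genes with one.

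**Figure D2:**
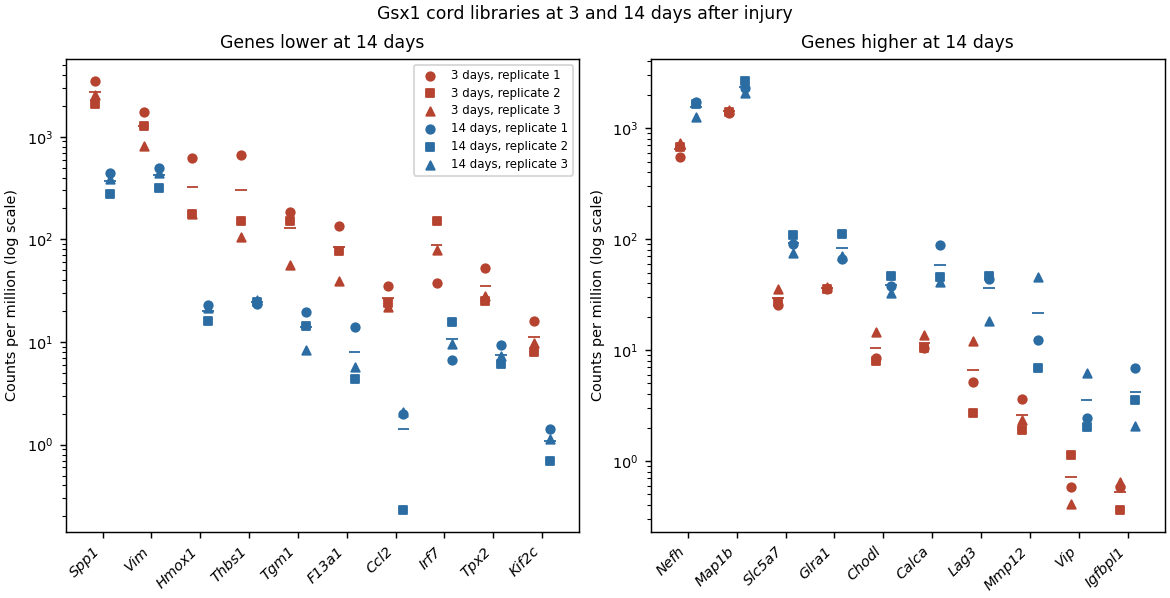
CPM (vertical axes, log scale) in each Gsx1 library at 3 days (red) and 14 days (blue) for 10 genes that were lower and 10 that were higher at 14 days; marker shapes are replicates and lines are group means. The 2 times do not overlap for any gene shown, which holds for 5560 of 16314 tested genes and was a condition for genes named by size of change. The highest library is 3-day replicate 1 for Hmox1, Thbs1 and Kif2c, and it is the lowest of its group for Irf7.

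Genes of heme and iron handling included one of the largest falls. Hmox1 (chr8:75093618-75100593), the enzyme that breaks down heme, was at 627, 177 and 178 CPM at 3 days and 22.7, 16.0 and 21.3 CPM at 14 days (log2 fold change -4.04, SE 0.46, adjusted p = 3.84e-05), with 3-day replicate 1 more than 3 times as high as the other libraries of its group. Without that library its log2 fold change was -3.15 and it kept its call (adjusted p = 1.12e-04). It stood at 13.7 to 15.9 CPM (median 14.8, 4 libraries) at 35 days and 6.32 ± 0.0964 CPM (SD, n = 3) in sham cord. Ftl1, the light chain of the iron store ferritin, was at 2363, 1407 and 1201 CPM at 3 days and 645, 466 and 599.6 CPM at 14 days (log2 fold change -1.54, SE 0.35, adjusted p = 0.0100). Ftl1 lost its call without 3-day replicate 1 (0.103) and 14-day replicate 2 (0.0801). Trf, the iron carrier transferrin, which oligodendrocytes make, was at 3773, 3258 and 2927 CPM at 3 days and 2144, 1926 and 1390.5 CPM at 14 days (log2 fold change -0.87, SE 0.22, adjusted p = 0.0201). Trf lost its call without 3-day replicate 1 (0.125), 14-day replicate 2 (0.0798) and 14-day replicate 3 (0.0894). These were the 3 called genes among 17 tested for iron and heme handling, and Ftl1 has near-identical copies elsewhere in the genome. Among 19 antioxidant genes, Prdx1 (-0.76, adjusted p = 0.0228), Prdx6 (-0.85, adjusted p = 0.0292) and Txnrd1 (-0.53, adjusted p = 0.0350) were lower besides Hmox1. Prdx1 lost its call without 3-day replicate 1 (0.193), 14-day replicate 1 (0.0597), 14-day replicate 2 (0.117) and 14-day replicate 3 (0.0546). Prdx6 lost it without 3-day replicate 1 (0.196), 3-day replicate 2 (0.0744), 14-day replicate 2 (0.121) and 14-day replicate 3 (0.0988). Txnrd1 lost it without 3-day replicate 1 (0.359), 14-day replicate 1 (0.0691), 14-day replicate 2 (0.0893) and 14-day replicate 3 (0.129).

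Chemokines that draw monocytes into tissue were among the largest falls. Ccl2 was at 35.0, 24.0 and 21.7 CPM at 3 days and 1.99, 0.230 and 2.06 CPM at 14 days (log2 fold change -4.25, SE 0.59, adjusted p = 2.32e-04). Its neighbour Ccl7 was at 17.9, 13.9 and 7.82 CPM at 3 days and 1.61, 0.459 and 0.399 CPM at 14 days (log2 fold change -3.99, SE 0.72, adjusted p = 0.00248). Both kept their calls with each library left out. Ccl2 was at 0.534 ± 0.0485 CPM (SD, n = 3) in sham cord, between its lowest and highest 14-day values. Ccl12 (-2.82, adjusted p = 0.0158), the neutrophil chemokine Cxcl1 (-3.53, adjusted p = 0.0214), the receptor antagonist Il1rn (-2.47, adjusted p = 0.0170) and the cytokine Clcf1 made up the 6 lower genes of 19 tested in the chemokine and acute cytokine list (median -1.25). The list's count was 3 without 3-day replicate 1 or without any of the 14-day libraries. The C-type lectins Clec4n and Clec4d, receptors of myeloid cells for microbial and cell debris, were both lower. Clec4n was at 12.0, 10.8 and 7.17 CPM at 3 days and 0.559, 0.230 and 0.598 CPM at 14 days (-4.42, adjusted p = 2.32e-04), and Clec4d at 30.5, 17.1 and 9.86 CPM at 3 days and 2.30, 0.803 and 0.798 CPM at 14 days (-3.87, adjusted p = 0.00200). For both, every 14-day library was below every 3-day library. F13a1, a coagulation factor subunit that monocytes and perivascular macrophages carry, was at 136, 76.6 and 39.5 CPM at 3 days and 13.8, 4.36 and 5.72 CPM at 14 days (log2 fold change -3.40, SE 0.57, adjusted p = 0.00107). The membrane dipeptidase Dpep2 changed by -3.75 (adjusted p = 0.00248) and Nxpe5 by -4.43 (adjusted p = 0.00468); these 5 genes kept their calls with each library left out. Without 14-day replicate 1 the log2 fold changes were -4.91 for Ccl7, -4.56 for Clec4d and -4.06 for F13a1. Ccl12 was at -3.47 without 14-day replicate 2, Dpep2 at -4.51 without 14-day replicate 3 and Nxpe5 at -3.84 without 3-day replicate 1. Msr1, the class A scavenger receptor, was at 92.8, 58.5 and 25.8 CPM at 3 days and 7.20, 2.64 and 12.7 CPM at 14 days (log2 fold change -2.98, SE 0.59, adjusted p = 0.00468). Msr1 lost its call without 14-day replicate 2 (0.0510) and was at -3.59 without 14-day replicate 3. Ccr2, the receptor for Ccl2 that marks blood monocytes, was at 22.6, 29.9 and 11.0 CPM at 3 days and 10.1, 5.34 and 10.4 CPM at 14 days, where all 14-day libraries were below the 3-day range but the test was not passed (-1.30, adjusted p = 0.180).

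Called phagocyte genes went both ways. Spp1 (chr5:104435111-104441053), osteopontin, secreted by phagocytes at lesions, lost the most CPM of the genes named by the rule for change in level, at 3529.9, 2098 and 2575 CPM at 3 days and 447, 277 and 385 CPM at 14 days (log2 fold change -2.89, SE 0.39, adjusted p = 1.95e-04), and kept its call with each library left out. At 35 days it was at 275 to 404 CPM (median 282, 4 libraries), above the 122 ± 18.1 CPM (SD, n = 3) of sham cord. The lysosomal membrane protein Cd68 (-1.47, adjusted p = 0.0202), the lectin Lgals3 (-1.76, adjusted p = 0.0457), the fatty acid carrier Fabp5 (-1.12, adjusted p = 0.0285) and the protease Ctsb (-0.86, adjusted p = 0.0299) were also lower among the 21 genes of the disease-associated phagocyte list. Itgax, the integrin CD11c, was higher at 23.0, 13.3 and 19.0 CPM at 3 days and 42.5, 30.2 and 68.4 CPM at 14 days (log2 fold change 1.35, SE 0.38, adjusted p = 0.0338). Atp6v0d2, a subunit of the proton pump, was also higher, at 5.70, 3.12 and 4.49 CPM at 3 days and 13.8, 6.14 and 32.8 CPM at 14 days (log2 fold change 1.98, SE 0.52, adjusted p = 0.0241). Gpnmb, a glycoprotein of lipid-laden phagocytes, was at 1221, 694 and 455 CPM at 3 days and 431, 155 and 515 CPM at 14 days with overlapping groups (-1.11, adjusted p = 0.136). Apart from Spp1, the calls in this list moved with single libraries: without 3-day replicate 1 the lower members numbered 1 and the higher members 0, and the same counts without 14-day replicate 2 were 1 and 1. Itgax had adjusted p from 0.0536 to 0.144 with libraries left out, and Atp6v0d2 lost its call without 3-day replicate 1 (0.0844), 3-day replicate 2 (0.0965) and 14-day replicate 3 (0.164).

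Other phagocyte genes rose from very low levels. Mmp12, the macrophage elastase, was at 3.61, 1.92 and 2.33 CPM at 3 days and 12.4, 6.89 and 45.4 CPM at 14 days (log2 fold change 3.03, SE 0.68, adjusted p = 0.0104). The highest value came from 14-day replicate 3, the library with the high MHC class II sum. The Mmp12 call was lost without 3-day replicate 1 (0.0554) and 14-day replicate 3 (0.0854). Lag3, which binds MHC class II and is made by microglia and lymphocytes, was at 5.12, 2.70 and 12.1 CPM at 3 days and 43.7, 46.3 and 18.3 CPM at 14 days (log2 fold change 2.44, SE 0.53, adjusted p = 0.00795). Lag3 lost its call without 3-day replicate 1 (0.0724) and 14-day replicate 2 (0.0533) and was at 3.19 without 3-day replicate 3. Retnla, a marker of alternatively activated macrophages, had no read in the 3-day libraries and 0.683, 0.287 and 12.0 CPM at 14 days, which is at least 68.6-fold higher against a floor of 3 reads over the 3-day group. Mgl2, a lectin of macrophages and dendritic cells, went from 3 reads in the 3-day group to 112 reads in the 14-day group, a ratio of 39.2 (95% interval 13.1 to 193, counting error only). Most reads of both came from 14-day replicate 3, without which the adjusted p was 0.116 for Retnla and 0.148 for Mgl2; both were also lost without 3-day replicate 1 (0.0841 and 0.0890), and Mgl2 without 3-day replicate 2 (0.0663) or 3 (0.0515). The adjoining apolipoprotein genes Apoc2 and Apoc4 were called in opposite directions; how reads that span both were counted is not given in the sources used here. Apoc2, the activator of lipoprotein lipase, was at 25.3, 2.46 and 6.53 CPM at 3 days and 0.932, 0.918 and 0 CPM at 14 days (log2 fold change -4.17, SE 1.01, adjusted p = 0.0153). Apoc4 was at 0.175, 0.300 and 0.117 CPM at 3 days and 3.42, 1.26 and 2.93 CPM at 14 days (log2 fold change 3.63, SE 0.87, adjusted p = 0.0150). Apoc2 lost its call without 3-day replicate 1 (0.170), 14-day replicate 1 (0.0507), 14-day replicate 2 (0.0742) and 14-day replicate 3 (0.0558). Apoc4 lost it without 3-day replicate 1 (0.0910) and 14-day replicate 1 (0.0540).

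Lipid and lysosome genes were lower in part. Among 18 genes of lipid uptake, efflux and storage, 5 were lower (median -0.47): Msr1, the lipoprotein receptor Scarb1 (-0.63, adjusted p = 0.00858), the lipid droplet coat Plin2 (log2 fold change -1.69, SE 0.37, adjusted p = 0.00858), the acid lipase Lipa (-0.87, adjusted p = 0.0409) and Ch25h, which makes 25-hydroxycholesterol (-1.68, adjusted p = 0.0197). Plin2 was at 268, 159 and 93.1 CPM at 3 days and 56.0, 38.4 and 67.4 CPM at 14 days. Among 25 lysosomal genes, 6 were lower and 1 higher (median -0.38), among them the protease Lgmn at 881, 677 and 490.2 CPM at 3 days and 356, 324 and 372 CPM at 14 days (log2 fold change -0.96, SE 0.21, adjusted p = 0.00798) and the glucuronidase Gusb (-1.20, adjusted p = 0.00700). Without 3-day replicate 1 the lower members numbered 1 in the lipid list and 0 in the lysosome list. Without 14-day replicate 2 they also numbered 1 and 0. Of 17 tested complement genes, 4 were lower, 1 was higher and 12 were not called, where 6.32% of all tested genes were called. The median was -0.18, with 10 negative and 7 positive values. In this list the receptors C5ar1 (-2.86, adjusted p = 0.00395) and C3ar1 (-1.69, adjusted p = 0.0124), factor B (Cfb, -1.96, adjusted p = 0.0163) and properdin (Cfp, adjusted p = 0.0199) were lower, and Cd55, which breaks up complement convertases, was higher (1.08, adjusted p = 0.0170). C1qb, a chain of the first component, was at 349, 247 and 217 CPM at 3 days and 226, 179.9 and 188 CPM at 14 days with overlapping groups (-0.45, adjusted p = 0.470). The lower members of that list numbered 1 without 3-day replicate 1, 2 without 3-day replicate 2 or 14-day replicate 1, and 1 without 14-day replicate 2. Of 14 homeostatic microglia genes 1 was called, where 6.32% of all tested genes were called, and 13 had negative values (median -0.44). The called gene, Tmem119, was at 70.2, 53.5 and 45.8 CPM at 3 days and 32.2, 31.6 and 30.9 CPM at 14 days (log2 fold change -0.84, SE 0.21, adjusted p = 0.0196). Tmem119 lost its call without 3-day replicate 1 (0.166), 14-day replicate 1 (0.0629), 14-day replicate 2 (0.0909) and 14-day replicate 3 (0.0549).

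Reactive astrocyte genes were lower in part, and Gfap did not pass the test. In this list 8 of 23 genes were lower and none higher (median -1.01), with 7 lower in injured controls. Tgm1, a transglutaminase, was at 184, 149 and 56.0 CPM at 3 days and 19.6, 14.2 and 8.38 CPM at 14 days (log2 fold change -3.21, SE 0.47, adjusted p = 3.37e-04). Emp1, a membrane protein, was at 148, 103 and 91.7 CPM at 3 days and 18.6, 22.4 and 43.0 CPM at 14 days (log2 fold change -2.03, SE 0.33, adjusted p = 8.76e-04). Tgm1 and Emp1 kept their calls with each library left out. Vim, the intermediate filament vimentin, was at 1763, 1269.6 and 814 CPM at 3 days and 500.4, 316 and 448 CPM at 14 days (log2 fold change -1.60, SE 0.37, adjusted p = 0.0102). Timp1, an inhibitor of metalloproteinases, changed by -2.08 (adjusted p = 0.0102) and Socs3, which limits cytokine signalling, by -1.52 (adjusted p = 0.00953). Vim lost its call without 3-day replicate 1 (0.0924) and 14-day replicate 2 (0.0852). Socs3 lost it without 3-day replicate 1 (0.0892) and 14-day replicate 2 (0.0801), and Timp1 without 3-day replicate 1 (0.0821), 14-day replicate 1 (0.0592) and 14-day replicate 2 (0.0747). Gfap, the astrocyte filament, was at 7352, 7179.6 and 6552 CPM at 3 days and 6427, 4943 and 5489.7 CPM at 14 days (-0.32, adjusted p = 0.423) and remained above the 1982 ± 281 CPM (SD, n = 3) of sham cord. At 35 days Tgm1 was at 12.8 to 16.3 CPM (median 15.5, 4 libraries) and Vim at 404 to 523 CPM (median 427, 4 libraries). In sham cord they were at 0.511 ± 0.0878 CPM (SD, n = 3) and 84.1 ± 7.66 CPM (SD, n = 3). The list's count was 2 without 3-day replicate 1 or 14-day replicate 2, 5 without 14-day replicate 1 or 3, and 13 without 3-day replicate 3. Several of these genes are also made by phagocytes and fibroblasts.

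Of 18 tested astrocyte genes of the uninjured cord, 1 was lower, 1 was higher and 16 were not called (median 0.27), where 6.32% of all tested genes were called. Sparcl1 and Nes, given after these, are not in that list. Aldh1l1, a folate enzyme of astrocytes, was at 184, 176 and 146 CPM at 3 days and 107, 90.1 and 87.4 CPM at 14 days (log2 fold change -0.83, SE 0.10, adjusted p = 9.82e-05), with every library left out in turn giving a call. Ntsr2, a neurotensin receptor of astrocytes, was at 85.9, 97.7 and 153 CPM at 3 days and 201, 195 and 190.3 CPM at 14 days (log2 fold change 0.80, SE 0.18, adjusted p = 0.00863). Ntsr2 lost its call without 3-day replicate 1 (0.0910). Sparcl1, a secreted protein of astrocytes that aids synapse formation, was the gene that gained the most CPM by the same rule, at 1485, 1755 and 2542 CPM at 3 days and 3129.9, 3844 and 3484 CPM at 14 days (log2 fold change 0.86, SE 0.19, adjusted p = 0.00964). Sparcl1 lost its call without 3-day replicate 1 (0.0988) and 14-day replicate 2 (0.0723). Nes, the filament nestin of progenitors, reactive astrocytes and endothelium, was at 259, 109 and 94.4 CPM at 3 days and 66.6, 52.7 and 44.3 CPM at 14 days (log2 fold change -1.50, SE 0.37, adjusted p = 0.0170). Its highest value was in 3-day replicate 1, and its call was lost without 3-day replicate 1 (0.229), 14-day replicate 2 (0.0893) and 14-day replicate 3 (0.0634).

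Several genes of early matrix were lower at 14 days. Thbs1, thrombospondin 1, was at 661, 151 and 105 CPM at 3 days and 23.4, 24.5 and 25.5 CPM at 14 days (log2 fold change -3.64, SE 0.58, adjusted p = 7.51e-04), and the fall held without 3-day replicate 1 (log2 fold change -2.39, adjusted p = 0.0137). Tnc, tenascin C, was at 195, 82.7 and 69.2 CPM at 3 days and 25.2, 24.4 and 32.8 CPM at 14 days (log2 fold change -2.07, SE 0.40, adjusted p = 0.00387). Tnc lost its call without 3-day replicate 1 (0.0618). Fibronectin, Fn1, was at 1169, 627 and 555 CPM at 3 days and 194, 176 and 506 CPM at 14 days (log2 fold change -1.42, SE 0.41, adjusted p = 0.0356). Its 14-day replicate 3 was near the 3-day range, and the call was lost without 3-day replicate 1 (0.260), 14-day replicate 1 (0.155) and 14-day replicate 2 (0.200). Without 14-day replicate 3 its log2 fold change was -2.08. Col4a1, a chain of basement membrane collagen, was at 266, 249 and 250.1 CPM at 3 days and 85.1, 74.8 and 131 CPM at 14 days (log2 fold change -1.39, SE 0.26, adjusted p = 0.00290) and kept its call with each library left out. Col1a1, the main fibrillar collagen of scar, was at 149, 82.1 and 108 CPM at 3 days and 172, 156 and 194 CPM at 14 days (0.62, adjusted p = 0.597). The insulin-like growth factor binding proteins Igfbp2 and Igfbp3 changed by -2.35 (adjusted p = 9.36e-04) and -2.10 (adjusted p = 0.00440); Igfbp2 kept its call with each library left out and Igfbp3 lost it without 14-day replicate 2 (0.0509).

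Endothelial genes gave 5 lower of 20 tested and none higher (median -0.50). Eng, endoglin, a TGF-beta co-receptor of endothelium, was at 68.5, 71.1 and 64.7 CPM at 3 days and 31.0, 33.6 and 31.5 CPM at 14 days (log2 fold change -1.09, SE 0.24, adjusted p = 0.00858) and kept its call with each library left out. Pecam1, the junction protein CD31, was at 86.7, 70.3 and 59.4 CPM at 3 days and 36.0, 32.4 and 42.2 CPM at 14 days (log2 fold change -0.97, SE 0.20, adjusted p = 0.00506), losing its call without 3-day replicate 1 (0.0573) and 14-day replicate 2 (0.0520). Kdr, the main VEGF receptor, changed by -1.03 (adjusted p = 0.0164), Cdh5, the endothelial cadherin, by -1.11 (adjusted p = 0.0382) and Tie1 by -0.81 (adjusted p = 0.0321). The list's count was 1 without 3-day replicate 1 or 14-day replicate 2, 2 without 3-day replicate 2 or 14-day replicate 1, and 5 to 7 without the others. At 14 days Eng was at 32.0 ± 1.40 CPM (SD, n = 3), against 39.4 ± 7.33 CPM (SD, n = 3) in sham cord at 3 days. The endothelial list summed to 850 to 999 CPM in Gsx1 cord at 14 days. In sham cord it summed to 818 to 899 CPM at 3 days and 558 to 626 CPM at 35 days. Of the 20 genes of hypoxia and glycolysis, Ldha (-0.99, adjusted p = 0.0170), the lactate exporter Slc16a3 (-1.57, adjusted p = 0.0217) and Hif1a (-0.60, adjusted p = 0.0287) were lower and the mitophagy receptor Bnip3 was higher (0.55, adjusted p = 0.0159). Without 3-day replicate 1, 14-day replicate 1 or 14-day replicate 2, none of the lower 3 was called (adjusted p = 0.0596 or more), and Bnip3 lost its call without 3-day replicate 1 (0.113), 14-day replicate 1 (0.0623) and 14-day replicate 2 (0.0772).

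Called genes of the neuron lists were higher at 14 days, except Tubb2b of the immature neuron list, given below. Among the neuron lists the cholinergic and motor neuron list had the highest median. Of its 14 genes, 5 were higher and none lower, all 14 had positive values, and the median was 1.14. Slc5a7, the choline transporter that supplies acetylcholine synthesis, was at 25.5, 27.0 and 35.3 CPM at 3 days and 91.4, 109 and 74.5 CPM at 14 days (log2 fold change 1.65, SE 0.38, adjusted p = 0.0104). The 2 times did not overlap, and at 35 days it was at 64.0 to 99.3 CPM (median 90.9, 4 libraries), against 111 ± 8.95 CPM (SD, n = 3) in sham cord. Chodl, a marker of fast motor neurons, was at 8.56, 7.99 and 14.7 CPM at 3 days and 37.6, 46.8 and 32.6 CPM at 14 days (log2 fold change 1.90, SE 0.39, adjusted p = 0.00514). Slc18a3, which loads acetylcholine into vesicles, changed by 1.24 (adjusted p = 0.0410) and Mnx1, a transcription factor of motor neurons, by 2.00 (adjusted p = 0.0457) from 0.698, 0.420 and 0.758 CPM. Chat, which makes acetylcholine, was at 11.4, 17.4 and 17.8 CPM at 3 days and 29.8, 33.4 and 26.6 CPM at 14 days, with no overlap between times but an adjusted p of 0.0857. Slc5a7 lost its call without 3-day replicate 1 (0.0841) and 14-day replicate 2 (0.0706) and Chodl without 3-day replicate 1 (0.0548). The adjusted p of Slc18a3 ran from 0.0258 to 0.221 and that of Mnx1 from 0.0452 to 0.198 over the 6 fits with a library left out. The list's count was 1 without 3-day replicate 1, 2 without 14-day replicate 2, and 3 without 3-day replicate 2 or 14-day replicate 1.

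Calca, the precursor of calcitonin gene-related peptide, which motor neurons and pain-sensing ganglion neurons make, was the fifth higher gene of the cholinergic list. It was at 10.4, 10.4 and 13.8 CPM at 3 days and 89.1, 46.0 and 40.8 CPM at 14 days (log2 fold change 2.34, SE 0.35, adjusted p = 4.08e-04) and kept its call with each library left out. At 14 days it was above the sham level of 26.3 ± 2.41 CPM (SD, n = 3), and at 35 days it was at 23.1 to 58.2 CPM (median 30.0, 4 libraries). Of 10 genes in a list of sensory ganglia, 5 were tested, of which Calca was higher and the other 4 were not called. With Calca included, the list summed to 26.8, 40.8 and 36.5 CPM at 3 days and 114, 67.3 and 69.8 CPM at 14 days. Among the 5 not tested, Scn10a, a sodium channel of pain-sensing neurons, had 0, 1 and 1 reads and Prdm12 had 0, 0 and 0 reads in the 14-day libraries. The part of ganglion cells in the Calca values was not tested. Vip, a neuropeptide that injured neurons switch on, was at 0.582, 1.14 and 0.408 CPM at 3 days and 2.42, 2.01 and 6.18 CPM at 14 days (log2 fold change 2.30, SE 0.52, adjusted p = 0.00968). Its highest value was in 14-day replicate 3, and Vip lost its call without 3-day replicate 1 (0.0807) and 14-day replicate 3 (0.0699).

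Genes shared by most neurons had smaller values. Of 20 pan-neuronal genes, 3 were higher and none lower, and 19 had positive values (median 0.53). Nefh, the heavy neurofilament chain of large axons, was at 549, 682 and 739 CPM at 3 days and 1713, 1661 and 1259.8 CPM at 14 days (log2 fold change 1.23, SE 0.30, adjusted p = 0.0153). Nefl, the light chain, was at 808, 1042 and 1082 CPM at 3 days and 2033, 2240.3 and 1739 CPM at 14 days (log2 fold change 1.04, SE 0.28, adjusted p = 0.0274). In both, no 3-day library reached the 14-day range. Tubb3, a neuronal tubulin, changed by 0.55 (adjusted p = 0.0390). Map1b, a microtubule protein of axons, was at 1379, 1416 and 1469.9 CPM at 3 days and 2310.1, 2691 and 2088 CPM at 14 days (log2 fold change 0.73, SE 0.19, adjusted p = 0.0186). Snap25 of the release machinery had 0.69 (adjusted p = 0.112) and Rbfox3, the nuclear marker NeuN, 0.48 (adjusted p = 0.194). The glycine receptor subunits Glra1 and Glrb were the 2 higher genes of 20 in the GABAergic and glycinergic list, with Glra1 at 35.3, 35.7 and 37.0 CPM at 3 days and 66.1, 112 and 71.1 CPM at 14 days (log2 fold change 1.21, SE 0.30, adjusted p = 0.0169) and Glrb changing by 0.82 (adjusted p = 0.0356). None of the 20 glutamatergic genes was called, and the vesicular glutamate transporter Slc17a6 had 0.71 (adjusted p = 0.170) beside 0.52 (adjusted p = 0.296) for the GABA-synthesizing Gad1. Without 3-day replicate 1 or 14-day replicate 2 none of the pan-neuronal and none of the GABAergic and glycinergic genes was called, and without 14-day replicate 1 these counts were 0 and 1. Without 3-day replicate 2, Nefl (0.0650), Tubb3 (0.121), Glra1 (0.0535) and Glrb (0.0657) lost their calls and Nefh kept its call (0.0451). Nefh lost its call without 3-day replicate 1 (0.108), 14-day replicate 1 (0.0595) and 14-day replicate 2 (0.0772). Map1b lost it without 3-day replicate 1 (0.102), 3-day replicate 2 (0.0580), 14-day replicate 1 (0.0522) and 14-day replicate 2 (0.117). Glra1 lost it without 3-day replicate 1 (0.0903), 3-day replicate 2 (0.0535) and 14-day replicate 2 (0.134).

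The summed level of the pan-neuronal list was 6959.7, 9243 and 9296 CPM at 3 days, 13767, 14772 and 12336 CPM at 14 days, 13788 to 14615 CPM at 35 days and 16791 to 17853 CPM in sham cord at 3 days. The cholinergic list summed to 258, 368 and 428, then 796, 717 and 612, then 641 to 662 CPM, against 739 to 845 CPM in sham cord at 3 days. Sham cord at 35 days was at 18988 to 19373 CPM for the pan-neuronal list and 809 to 851 CPM for the cholinergic list. CPM are shares of a library, so a larger share for one set leaves less for the others. The reactive astrocyte list summed to 12082, 10527 and 8773 CPM at 3 days and 8174, 6228 and 6959 CPM at 14 days, without overlap. The disease-associated phagocyte list summed to 20920.5, 12364 and 12516 CPM and 13871, 10012 and 10494 CPM, and its times overlapped. The part of these lists, and of the muscle genes, whose sum was above the 3-day range in every 14-day library, in the neuronal values was not tested.

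**Figure D3:**
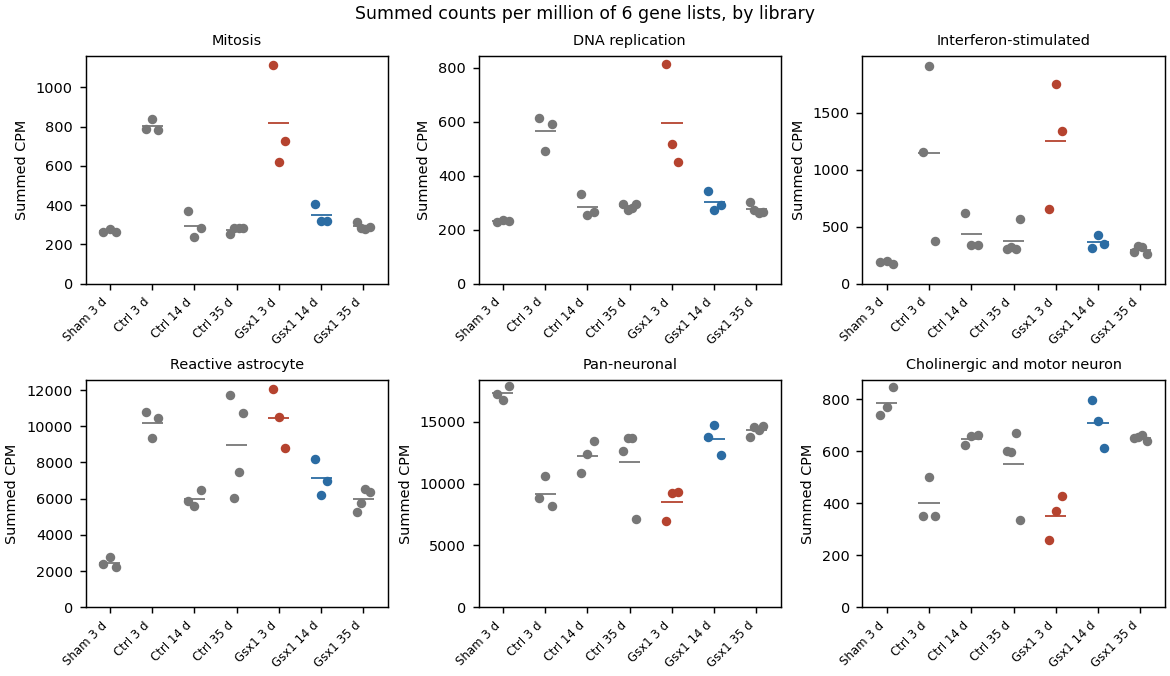
Summed CPM (vertical axes, from 0) of 6 gene lists by group (horizontal axes), with 1 point per library in order of replicate number and a line at each group mean; Gsx1 libraries at 3 and 14 days are coloured. In Gsx1 cord the mitosis, interferon and neuronal sums do not overlap between 3 and 14 days, and 3-day replicate 1 is the highest of its group for mitosis (1116 CPM) and the lowest for pan-neuronal genes (6959.7 CPM).

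Of 12 tested genes of immature neurons, 2 were higher (Tubb3, given above, and Igfbpl1) and 1 was lower (Tubb2b). Tubb2b, a tubulin of newborn neurons and of reactive and dividing glia, was lower at 363, 304 and 279.6 CPM at 3 days and 147, 139 and 151 CPM at 14 days (log2 fold change -1.11, SE 0.13, adjusted p = 6.26e-05). Its call was kept with each library left out, and it had a fall of -1.24 (SE 0.13, adjusted p = 1.67e-05) in injured controls. Igfbpl1, made by neural progenitors and young neurons and by some phagocytes, rose from 0.582, 0.360 and 0.642 to 6.89, 3.56 and 2.06 CPM (log2 fold change 2.96, SE 0.88, adjusted p = 0.0427), with adjusted p from 0.0429 to 0.170 when libraries were left out. None of the 11 tested transcription factors of dorsal interneurons, the domain in which Gsx1 acts in the embryo, was called. In the Notch pathway, the receptor Notch4 was lower (-0.77, adjusted p = 0.0284) and lost its call without 3-day replicate 1 (0.308), 3-day replicate 2 (0.0540), 14-day replicate 1 (0.0959) and 14-day replicate 2 (0.138). Notch1 was not called (-0.41, adjusted p = 0.0672). No gene was called among 15 of oligodendrocyte precursors, 12 of newly formed oligodendrocytes, 25 of oxidative phosphorylation or 25 of sterol and fatty acid synthesis, and 1 of 21 central myelin genes was (Trf, described above).

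**Figure D4:**
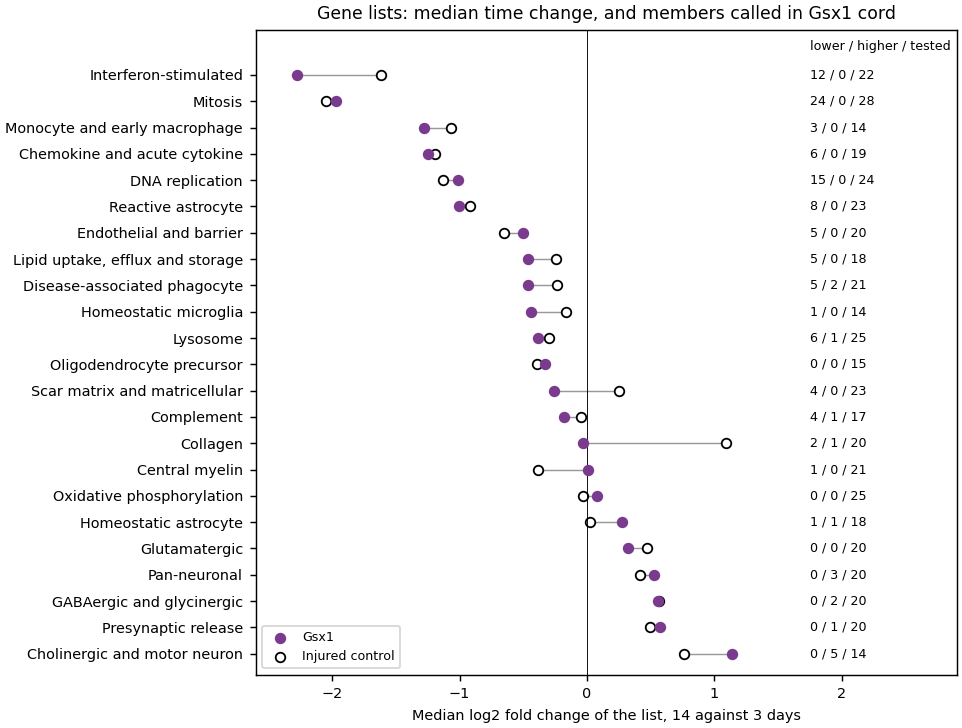
Median log2 fold change (horizontal axis, 14 against 3 days) of 23 gene lists (vertical axis) in Gsx1 cord (filled) and injured control cord (open), with the number of members lower, higher and tested in Gsx1 cord at the right. Of these 23 lists, the interferon-stimulated list has the lowest median in Gsx1 cord (-2.28) and the cholinergic list the highest (1.14), and collagen genes show the widest gap to injured controls (-0.03 against 1.09), which no gene passed the test for.

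Most of the called genes had the same direction in injured controls over the same time. There, 500 of 16314 genes were called (3.06%), 395 lower (2.42%) and 105 higher (0.644%). The 2 comparisons share no library, but both took their estimate of spread from the same model. Of the 1031 genes called in Gsx1 cord, 1025 had the same sign in injured controls, against 77.2% of all tested genes, and 312 were called in both, always in the same direction; these were 30.3% of the Gsx1 calls and 62.4% of the control calls. Across all tested genes the 2 time changes correlated with Pearson's r = 0.667, where genes are not independent replicates. The 784 genes lower in Gsx1 cord had median log2 fold changes of -1.02 there and -0.75 in controls, and the 247 higher genes 0.64 and 0.46. Since the genes were chosen for their change in Gsx1 cord, the smaller control values are no test of a difference.

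The test of that difference called no gene. With the time change in Gsx1 cord minus that in injured cord, 0 of 16314 genes passed (0.0%), 309 had an unadjusted p under 0.05 in edgeR (1.89%), and the smallest adjusted p was 0.292. DESeq2 called 2, Rn45s and Lars2, both also called by edgeR when injured control 14-day replicate 2 was left out, and both chosen for mention after their values were seen. Rn45s, the ribosomal RNA precursor, was at 2929, 3488 and 3467 CPM at 3 days and 2045, 2768 and 1803 CPM at 14 days in Gsx1 cord. In injured controls it was at 1031, 1008 and 2028 CPM at 3 days and 7828, 2048 and 9374 CPM at 14 days, and the high values were those of 2 control libraries. Lars2, a mitochondrial leucyl-tRNA synthetase gene, followed the same order (1169, 239 and 1241 CPM in the 14-day controls).

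For single genes the intervals of the difference were wide; they are not adjusted for the number of genes, and each gene given here had an adjusted p of 1.000 for the difference. Clec4n changed by -4.42 in Gsx1 cord and -1.90 (SE 0.52, adjusted p = 0.0440) in controls, a difference of -2.53 (95% interval -4.15 to -0.91). For Thbs1 the control change was -1.54 (SE 0.53, adjusted p = 0.107) and the difference -2.10 (95% interval -3.63 to -0.57). Mmp12 rose in both, by 5.59 (SE 0.77, adjusted p = 3.43e-04) in controls, with a difference of -2.56 (95% interval -4.57 to -0.55). Col4a1, lower in Gsx1 cord, was at -0.59 (SE 0.26, adjusted p = 0.204) in controls, a difference of -0.81 (95% interval -1.55 to -0.07). For Hmox1 the difference was -0.98 (95% interval -2.18 to 0.21) and for Spp1 0.18 (95% interval -0.87 to 1.23). It was 0.67 (95% interval -0.40 to 1.74) for Slc5a7 and 0.85 (95% interval -0.13 to 1.84) for Calca. The collagen list had 2 lower and 1 higher of 20 genes in Gsx1 cord and 3 higher in controls (medians -0.03 and 1.09), and none of its members passed the test of the difference. A p that misses the threshold does not show that the treatments changed alike.

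**Figure D5:**
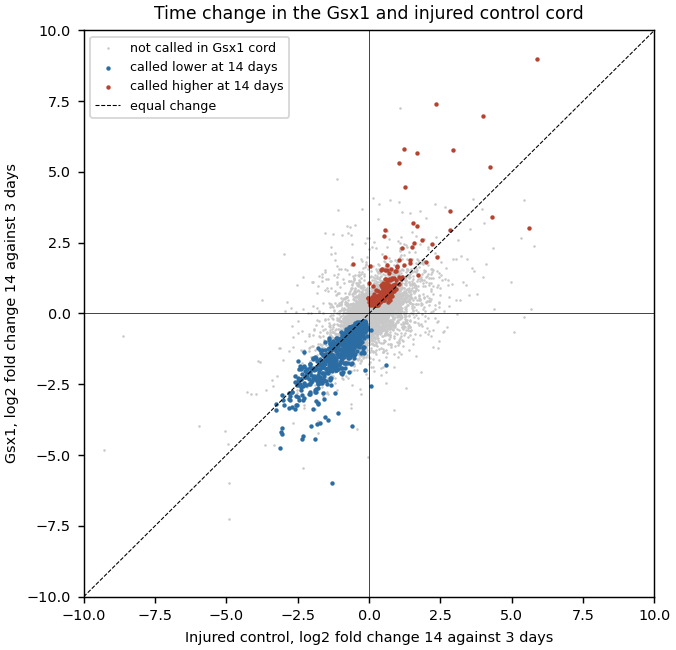
Log2 fold change from 3 to 14 days in Gsx1 cord (vertical axis) against injured control cord (horizontal axis), with 1 point per tested gene; genes called lower or higher in Gsx1 cord are coloured and the dashed line marks equal change. Nearly all called genes lie in the 2 quadrants of equal sign, and none passed the test of a difference between the treatments.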

How the data were processed

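The authors deposited 1 table of raw read counts per gene for the 32 libraries; the submitters' processing notes name HISAT2, SAMtools, HTSeq and DESeq2 and the builds mm10 and GRCm38. The sources used here give no versions, strand setting or library selection. Library totals and the spread between 3 libraries a group set the precision; replicates of the 6 libraries correlated at r = 0.969 to 0.984 and differed beyond sampling noise. CPM used TMM library sizes. All 32 libraries in 10 groups were fitted in 1 model with edgeR 4.0.16 (R 4.3.3), keeping genes that passed filterByExpr (minimum count 10, minimum total 15), 16314 of 23420; the time change was tested in Gsx1 cord, in injured controls and as their difference, with quasi-likelihood F tests and Benjamini-Hochberg adjustment over all tested genes. Counts were also simulated with the same genes and library sizes and the spread that the model had estimated. There, 66% of genes changed by 1 log2 unit and 80% of those changed by 2 were called, and 5.19% of calls were false. The simulation held no outlying library, so these rates do not cover the loss of calls seen when a library was left out. Intervals of log2 values used the t distribution with 26.4 degrees of freedom. Alternatives were other scalings, filters, a robust prior, DESeq2 1.42.0, the compared groups alone, a replicate block and leaving out each library.

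Named genes were the 12 largest rises and 12 largest falls by fold (mean of at least 1 CPM, groups not overlapping, no predicted name), the 6 largest of each by CPM, and of each list up to 5 called members of smallest p and its first 2 members. The comparison and the gene lists were chosen with earlier results of these data known. Lgals3, Itgax, Rn45s and Lars2 fall outside the rule, as do the genes for which the text says so, and were chosen after their values were seen. Promoters and coordinates are RefSeq's for GRCm38.p6; 139 of 141 gene names matched.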

Additional observations from a re-analysis of the deposited data

Results flagged for a closer look

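Levels at 35 days were examined for 12 genes over the 4 Gsx1 libraries of that time, and 2 had a library far from the other 3. Spp1 was at 404 CPM in replicate 3 against 275 to 283 CPM in the others, and Glra1 was at 57.9 CPM in the same replicate against 97.0 to 102 CPM. Chance marks about 1 group in 20 in this way. In that library Calca was the highest of the 4 (58.2 CPM), and Slc5a7 (64.0 CPM) and Nefh (1185 CPM) were the lowest, without passing the same limit.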

How the results depend on the processing

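In Gsx1 cord the count of called genes was 922 to 1062 under other scalings, other filters on low counts and a robust prior, 1443 with the compared groups alone (563 higher and 880 lower) and 1633 with DESeq2. With each library left out in turn it ran from 141 to 1281, and of 124 called genes named in the text or checked beside them, 34 stayed called without 3-day replicate 1, 40 without 14-day replicate 2 and 64 to 110 without the others; none reversed. In injured controls the count was 969 with DESeq2, 1790 with the compared groups alone and 122 to 420 with a library left out. For the difference between the treatments it was 2 with DESeq2 and 0 to 2 with a library left out. In Gsx1 cord the deviations of same-numbered libraries from their group means correlated at r = 0.16, -0.19 and -0.04. Differently numbered libraries gave -0.17 to 0.26. With 3 libraries a group, these values cannot tell whether a number stands for a shared batch. With replicate number as a block, on the compared groups alone, the counts were 906 in Gsx1 cord, 1671 in injured controls and 0 for the difference. Under the same block 98 of the 124 genes stayed called. C1qa, a complement chain that was not called, had a log2 fold change of -0.18 with all libraries, and -0.31 to 0.070 with each library left out (0.070 without 3-day replicate 1). Apart from what each left-out library removes, the causes were not tested.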

Other observations

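Genes of protein folding in the endoplasmic reticulum gave 4 lower of 19 tested and none higher. Sdf2l1, a chaperone cofactor, was at 40.0, 36.1 and 28.5 CPM at 3 days and 19.4, 14.8 and 15.8 CPM at 14 days (log2 fold change -1.07, SE 0.29, adjusted p = 0.0260), and the disulfide isomerases Pdia6 (-0.75, adjusted p = 0.0181) and Pdia4 (-0.75, adjusted p = 0.0305) and the stress-secreted factor Manf (-0.72, adjusted p = 0.0339) were lower as well. None of the 4 was called without 3-day replicate 1 (adjusted p = 0.144 or more), 14-day replicate 1 (0.0540 or more) or 14-day replicate 2 (0.0963 or more). Of 24 cytosolic ribosomal protein genes tested, 23 had negative values, against 48.7% of all tested genes, and 2 were called, against 6.32% of all. Rps2 was at 550.0, 503 and 442 CPM at 3 days and 298, 229 and 266 CPM at 14 days (log2 fold change -0.91, SE 0.18, adjusted p = 0.00484) and Rps18 changed by -0.68 (adjusted p = 0.0415). Rps2 lost its call without 14-day replicate 2 (0.0524) and Rps18 without 3-day replicate 1 (0.169), 3-day replicate 2 (0.136), 14-day replicate 1 (0.121), 14-day replicate 2 (0.187) and 14-day replicate 3 (0.0534); ribosomal protein genes have many processed copies. Actb, cytoplasmic actin, often used as a reference transcript, was at 3162, 1923 and 2056 CPM at 3 days and 1505, 1259 and 1098 CPM at 14 days (log2 fold change -0.89, SE 0.20, adjusted p = 0.00863). Actb lost its call without 3-day replicate 1 (0.113) and 14-day replicate 2 (0.0587).

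Brain chondroitin sulfate proteoglycans, which limit axon growth at scars, gave 1 called gene each way among 17, where 6.32% of all tested genes were called. Ncan, neurocan, was at 209.8, 239 and 252 CPM at 3 days and 112, 118 and 198 CPM at 14 days (log2 fold change -0.71, SE 0.20, adjusted p = 0.0293), and Bcan, brevican, at 200.4, 216 and 337 CPM at 3 days and 435, 415 and 344 CPM at 14 days (log2 fold change 0.67, SE 0.19, adjusted p = 0.0312). Ncan lost its call without 3-day replicate 1 (0.0796), 3-day replicate 2 (0.0767), 3-day replicate 3 (0.0677), 14-day replicate 1 (0.152) and 14-day replicate 2 (0.176), and Bcan without 3-day replicate 1 (0.219), 3-day replicate 2 (0.131), 14-day replicate 1 (0.119) and 14-day replicate 2 (0.124). Tagln, a contractile protein of smooth muscle and myofibroblasts, was at 178, 90.8 and 48.1 CPM at 3 days and 18.4, 21.5 and 21.7 CPM at 14 days (log2 fold change -2.36, SE 0.54, adjusted p = 0.0106), with its call lost without 3-day replicate 1 (0.113), 14-day replicate 1 (0.0540) and 14-day replicate 2 (0.0680). Timp2, a metalloproteinase inhibitor made widely in the cord, was higher at 402, 352 and 403 CPM at 3 days and 535, 519 and 474 CPM at 14 days (log2 fold change 0.40, SE 0.09, adjusted p = 0.00912). Timp2 lost its call without 3-day replicate 2 (0.0580), 14-day replicate 1 (0.0513) and 14-day replicate 2 (0.0608).

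Red cell precursor genes were among the largest rises by fold. Klf1, the master regulator of red cell genes, was at 0, 0.120 and 0.175 CPM at 3 days and 5.40, 1.15 and 0.532 CPM at 14 days (log2 fold change 4.47, SE 1.24, adjusted p = 0.0293), and Trim58, which acts late in red cell maturation, at 0.116, 0.540 and 0.0583 CPM at 3 days and 3.60, 1.43 and 1.20 CPM at 14 days (log2 fold change 3.09, SE 0.93, adjusted p = 0.0438). For both, 14-day replicate 1 was the highest library, which was also the highest of the 6 for the red cell list (411 CPM) and the neutrophil list. Without it the adjusted p was 0.205 for Klf1 and 0.179 for Trim58, and the part of blood in these values was not tested. Klf1 was also not called without 3-day replicate 1 (0.170), 3-day replicate 2 (0.0882) or 14-day replicate 2 (0.0680), nor Trim58 without 3-day replicate 1 (0.213), 3-day replicate 3 (0.113) or 14-day replicate 2 (0.0938). Klf1 had a log2 fold change of 5.12 without 3-day replicate 3, and Trim58 of 4.44 without 3-day replicate 2.

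Of the 12 higher genes that stayed called with each library left out, several were chosen for mention after their values were seen. Agt, angiotensinogen, which astrocytes make in the cord, had group means of 144 CPM at 3 days and 294 CPM at 14 days (log2 fold change 1.03, SE 0.21, adjusted p = 0.00484). Rspo2, a secreted amplifier of Wnt signals, had means of 2.57 and 7.33 CPM (log2 fold change 1.51, SE 0.28, adjusted p = 0.00248). Rcn2, a calcium-binding protein of the endoplasmic reticulum, had 149 and 244 CPM (0.71, adjusted p = 7.51e-04). In injured controls the changes were 0.64 for Agt (adjusted p = 0.084), 0.92 for Rspo2 (adjusted p = 0.0611) and 0.54 for Rcn2 (adjusted p = 0.00920), and the difference was not called for any of these 3 genes.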
